A study of Mus musculus with 2 samples.

Results

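PAC1, the product of *Dusp2*, was examined here through the wild-type (WT) ILC2s in which its transcript was captured. In the WT library, 750 of 8193 ILC2 barcodes carried at least 1 *Dusp2* transcript, which is 9.15% (95% exact Clopper-Pearson interval 8.54% to 9.80%). They were selected on their *Dusp2* count: a barcode was kept with at least 500 detected genes, at most 10% of transcripts from mitochondrial genes and at least 1 transcript of *Gata3* or *Il1rl1*, and was a member with at least 1 of *Dusp2*. Both libraries together held 20361 barcodes, 10866 of them WT. *Dusp2* levels are therefore a description of the choice, and the results lie in the other genes.

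The study compared lung ILC2s of WT and Pac1-/- mice, the latter lacking PAC1 in the germline, both on the C57BL/6J background. Mice were 6 to 8 weeks old, with sex and age matched. Live Lineage- CD90.2+ ST2+ Sca-1+ cells were sorted from the lung, pooled over mice of 1 genotype and loaded as 1 library per genotype, with no treatment named for the mice of these libraries. Transcripts were counted as unique molecular identifiers (UMIs), so that PCR copies count as 1 molecule. With 1 WT library, cells are not replicates, no difference between cells could be tested, and every interval given covers counting error only.

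PAC1 is a nuclear dual-specificity phosphatase that removes phosphate from threonine and tyrosine of mitogen-activated protein kinases (MAPKs) such as ERK and p38. Like other inducible MAPK phosphatases it is an immediate-early gene: signals that activate the kinases also switch on their own inhibitor. ILC2s live in tissues, carry no antigen receptor and answer alarmins such as IL-33 with IL-5, IL-13 and amphiregulin. The neuropeptide CGRP restrains them through a receptor of CALCRL and RAMP1 and through cAMP.

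The *Dusp2* promoter is shown because the immediate-early genes compared below include EGR factors, whose binding sequence was searched for there. The 250 bases before the start of *Dusp2* lie at chr2:127335909-127336158 on the + strand (RefSeq, GRCm38.p6) and read, 5′ to 3′, with the match to the EGR sequence in capitals:

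Dusp2 promoter: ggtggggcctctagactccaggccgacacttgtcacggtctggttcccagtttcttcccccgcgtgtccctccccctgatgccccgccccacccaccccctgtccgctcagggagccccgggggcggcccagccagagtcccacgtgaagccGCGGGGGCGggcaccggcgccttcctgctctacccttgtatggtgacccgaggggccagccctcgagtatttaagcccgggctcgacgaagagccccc

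The letters GCGNGGGCG, searched on both strands, matched 1 time, from base -98 to base -90 before the start, as GCGGGGGCG, and 4.70% of 32851 mouse promoter windows of the same length held such a match. The GC box GGGCGG matched 3 times, 1 of them overlapping the EGR match, and stood in 32.7% of the windows. The cAMP response element TGACGTCA (in 1.55% of windows) and the AP-1 sequence TGANTCA (6.75%) had 0 matches in this window. A match is a description of letters and not of binding. The annotated gene has a transcript of 1617 bases in 4 exons and a shorter one of 756 bases in 2 exons.

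The labels were checked first. In the Pac1-/- library, 5 of 6914 kept barcodes held *Dusp2*, 1 UMI each, or 0.0862 counts per 1000000 UMIs (CPM; interval 0.0280 to 0.201) against 26.0 (24.7 to 27.4) in WT. Total UMIs were 56182065 in the WT and 60283285 in the Pac1-/- library, and medians per kept barcode were 4243 and 5638. The 2 libraries shared 29 barcode sequences, 15 of them kept. *Gata3* or *Il1rl1* was required of every kept barcode and checks nothing. *Thy1*, which encodes the sort antigen CD90, was at 170.4 CPM in members and 173 in matched cells. T cell transcripts were common: 563 of the 750 members and 4501 of the 8193 kept barcodes held at least 2 of 9 T cell markers, although *Cd4* and *Cd8a* were at 0 in members and matched cells. These 2 counts were not matched for depth, and members were deeper (median 7713 UMIs against 4243). Of the 5 compared, *Cd3e* (-0.56, -0.93 to -0.20) and *Cd3g* (-0.14, -0.24 to -0.03) had log2 ratios below 0 and *Trbc1* (0.14, 0.07 to 0.20) above 0, while *Trac* and *Trbc2* did not differ beyond counting error.

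*Dusp2* was a sparse transcript. The kept WT barcodes held 1411 *Dusp2* UMIs; 481 members carried 1 UMI, just inside the rule, 124 carried 2, 61 carried 3 and 84 carried 4 to 16. Just outside it lay 7443 barcodes with 0. The 84 members with the most transcript held 35.4% of all *Dusp2* UMIs. Members were deeper than the rest, with a median of 7713 UMIs per barcode against 4140 in barcodes without *Dusp2*.

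Detection followed depth while the level did not. From the shallowest to the deepest of 10 depth classes, the share of barcodes with *Dusp2* went from 1.46% to 27.7%, while the level lay between 17.5 and 29.98 CPM in all 10. After every barcode was thinned to 2000 UMIs, with 793 shallower barcodes left out, 4.30% (3.85% to 4.78%) of 7400 held *Dusp2*. A *Dusp2*-zero barcode is therefore one in which the transcript was not captured, not one known to lack it.

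**Figure D1:**
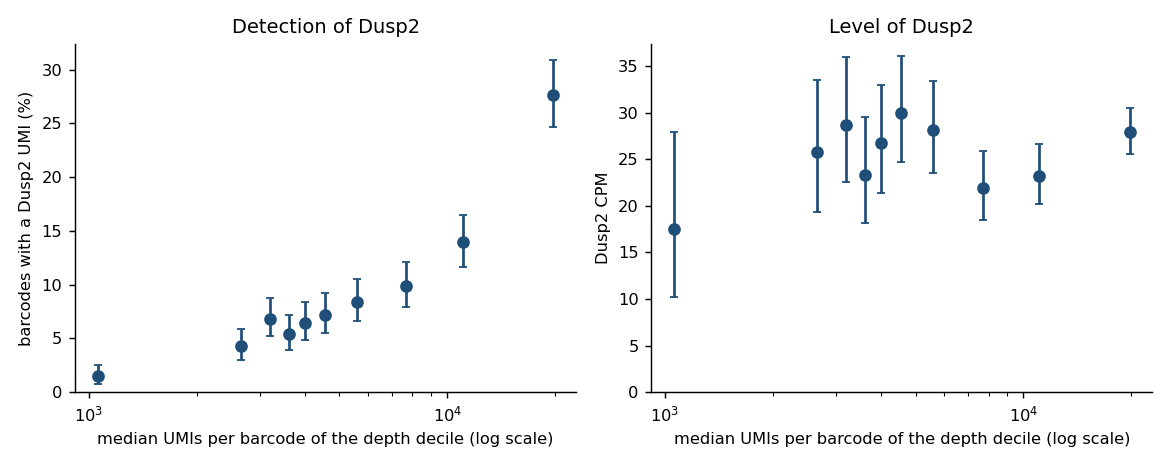
Percentage of kept WT barcodes with a *Dusp2* UMI (left) and *Dusp2* CPM (right) against the median depth of each depth decile, with 95% exact intervals for counting error. The share climbs to 27.7% in the deepest decile, while the level stays between 17.5 and 29.98.

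Other barcodes were examined with free transcript in the droplets in mind. Barcodes under 500 genes held 15 *Dusp2* UMIs, or 10.1 CPM (5.63 to 16.6), below the 26.0 of kept ILC2s. The same barcodes held 1417 CPM of the haemoglobin gene *Hba-a1* against 27.8 in kept ILC2s. They also held the ILC2 genes *Il1rl1*, at 1131 CPM against 1120, and *Gata3*, at 885 against 1215. Their *Dusp2* level is therefore not a measure of free transcript alone. Of the 201 barcodes that passed the limits without *Gata3* or *Il1rl1* (median 1303 UMIs), 121 were too shallow to be thinned, and 4 of the other 80 held *Dusp2* (5%, 1.38% to 12.3%), which did not differ from kept ILC2s within counting error. The part of free transcript in the single *Dusp2* UMIs was not tested.

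To ask which genes went along with the PAC1 transcript, each member was set beside the 3 unused *Dusp2*-zero WT ILC2s nearest to it in depth. The 2250 matched cells had a median of 7719.5 UMIs, but a mean of 10394 against 12036 in members, because the deepest *Dusp2*-zero cells ran out. UMIs were summed over each group, divided by the group's total and compared as a log2 ratio for the 8105 genes with at least 200 UMIs, *Dusp2* left out.

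Differences were small. There were 8 genes (0.0987%) at least 1.5-fold higher and 9 (0.111%) at least 1.5-fold lower in members, and 48.1% of all genes had a ratio above 0, with a median of -0.01. Several of those 17 rested on single cells. *Hbb-bs*, *Hba-a2* and *Hba-a1*, which encode haemoglobin chains, had log2 ratios of 6.06, 3.92 and 1.28, and 1 member cell held 935 of the 955 *Hbb-bs* UMIs. *Ccl4*, a chemokine gene, stood at -4.27, with 193 of its 200 matched UMIs in 1 cell. Without the highest cell of each gene the *Hba-a1* ratio was -0.24.

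The other genes past 1.5-fold were of low abundance. *Klrb1b*, a lectin-like receptor gene, had 11.5 CPM in members and 7.10 in matched cells (log2 ratio 0.70, 0.33 to 1.06), and *Ier5l*, a relative of the immediate-early gene *Ier5*, had 16.7 and 10.52 (0.67, 0.37 to 0.97). *Hook2*, which encodes a cargo adaptor of microtubules, had 6.21 and 11.3 (-0.86, -1.31 to -0.44). The others past 1.5-fold with gene names were *Nop2*, *Dpysl3* and *Kcnmb4* on the higher side, at 0.60 to 0.64, and *Cchcr1*, *Rbm45*, *Mtmr7*, *Xpnpep1*, *Utp4* and *Zbtb24* on the lower side, at -0.71 to -0.59. Just inside it lay *Zfyve1*, *Ammecr1*, *Tmem184c* and *Sh3bp5* above 0 and *Dusp19*, *Med6*, *Zbtb43*, *C1d* and *Cd3e* below.

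**Figure D2:**
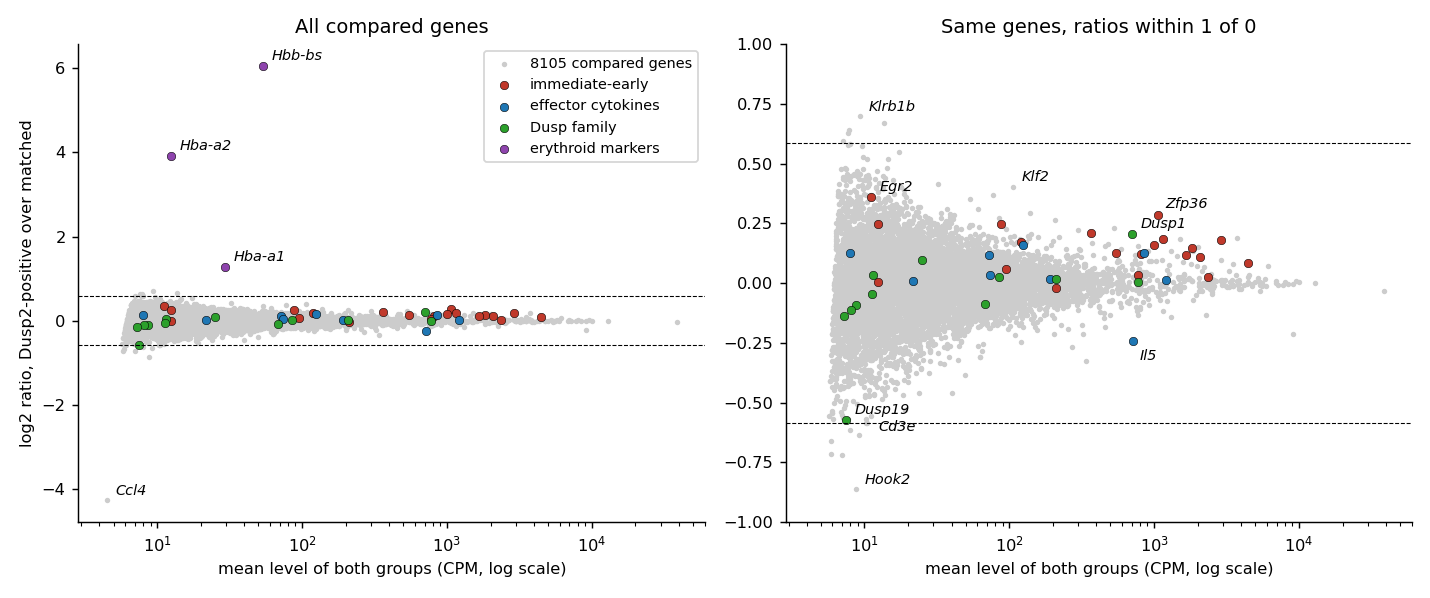
Log2 ratio of CPM from summed UMIs in 750 *Dusp2*-positive over 2250 depth-matched *Dusp2*-zero barcodes against mean level, all ratios (left) and ratios within 1 of 0 (right). Dashed lines mark 1.5-fold; haemoglobin genes and *Ccl4* stand apart through single cells, and immediate-early genes (red) lie mostly above 0.

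Among lists with at least 4 genes compared, immediate-early genes were the most often higher in members. Of 20 compared, 19 had a ratio above 0, against 48.1% of all genes, and their median log2 ratio was 0.14. *Zfp36*, which encodes the mRNA decay factor tristetraprolin, stood at 1168 CPM in members and 959 in matched cells (log2 ratio 0.28, 0.25 to 0.32). After thinning to 2000 UMIs it was found in 79.8% of members and 67.5% of matched cells. The shift was therefore seen in the share of cells with the transcript as well as in its sum.

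The EGR factors, zinc finger proteins induced by ERK signalling, did not move as 1 group. *Egr2* had 12.5 CPM in members and 9.75 in matched cells (log2 ratio 0.36, 0.02 to 0.69; -0.03 to 0.66 without its highest cell), and *Egr3* had 127 and 113 (0.17, 0.07 to 0.27). *Egr1* was the 1 immediate-early gene below 0, at 210 and 213 CPM (-0.02, -0.10 to 0.06). In thinned cells *Egr1* was found in 28.6% of members and 26.5% of matched cells, with overlapping intervals. *Dusp2* in turn was found in 4.96% (4.03% to 6.04%) of thinned cells with *Egr1* and 4.07% (3.56% to 4.62%) of those without.

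AP-1 subunits and the orphan nuclear receptors gave smaller ratios. *Fos* had 3089 and 2723 CPM (log2 ratio 0.18), *Jun* 1919 and 1734 (0.15), and *Junb* 4551 and 4298 (0.08). *Maff*, a small MAF factor, reached 0.25 and *Klf6*, a zinc finger factor, 0.18. *Nr4a1* and *Nr4a2*, nuclear receptors switched on by antigen receptor and cAMP signals, were at 0.11 and 0.09, whereas *Nr4a3* was at 0.00. These genes, apart from the EGR and NR4A genes and *Zfp36*, were picked for naming after their values were seen.

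NF-κB target genes and heat shock genes had a like pattern. Of 14 NF-κB targets 12 were above 0 (median 0.10), led by *Nfkbia*, the inhibitor that NF-κB itself induces, with 4008 CPM in members and 3514 in matched cells (log2 ratio 0.19, 0.17 to 0.21). Of 11 heat shock genes 10 were above 0 (median 0.09), among them *Hsph1* at 0.29 and *Hspa1a*, an inducible HSP70 gene, at 0.23. *Hspb1*, a small heat shock protein gene, was the one below 0, at -0.14. Immediate-early and heat shock transcripts are also known to rise during tissue dissociation, and the part of the preparation in these values was not tested.

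Among surface molecules of activation, *Cd69*, an early activation antigen, had 1607 CPM in members and 1413 in matched cells (log2 ratio 0.19, 0.16 to 0.21). *Tnfsf4*, which encodes OX40L, at 0.34 (-0.09 to 0.76) and *Cd83* at 0.27 (-0.10 to 0.62) did not differ beyond counting error. The list as a whole was balanced, with 7 of 16 genes above 0 and a median of -0.02. *Pdcd1*, which encodes PD-1, was lowest at -0.16 (-0.30 to -0.02).

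Over all members, *Il5* was the effector cytokine gene that was lower. Of 9 compared, 8 had a ratio above 0 and *Il5*, the eosinophil growth factor gene, was the only one below. *Il5* stood at 653 CPM in members and 771 in matched cells (log2 ratio -0.24, -0.28 to -0.20). *Il13* was at 193 and 191 (0.02, -0.06 to 0.10), and *Csf2*, which encodes GM-CSF, at 1209 and 1198 (0.01, -0.02 to 0.05). *Il13* and *Csf2* thus did not differ beyond counting error.

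*Areg*, which encodes the repair factor amphiregulin, had 892 CPM in members and 816 in matched cells (log2 ratio 0.13, 0.09 to 0.17). *Il4* was at 21.8 and 21.7, with 56 of its 508 matched UMIs in 1 cell. After thinning *Il4* was found in 5.01% (3.55% to 6.845%) of members and 2.665% (2.035% to 3.42%) of matched cells. *Il2* was at 74.9 and 69.1 (0.12, -0.01 to 0.25), and after thinning was found in 14.1% of members and 9.49% of matched cells. The median over the 9 genes was 0.03. *Il3*, *Il9*, *Il10*, *Il17a* and *Ifng* had too few UMIs to be compared.

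The count of chemokine genes above 0 varied with depth. Of 7 compared, 1 was above 0 over all members (median -0.18, *Ccl4* included), but 4 were in members below the median depth (median 0.01) and 0 in the deeper ones (-0.14). Of those 4, only *Cxcl10* was above 0 beyond counting error, at 0.53 (0.20 to 0.84). *Cxcl1* and *Cxcl2* did not differ from 0 there, and *Ccl4* rested on 1 member UMI and 2 matched UMIs. Over all members *Ccl1*, a ligand of CCR8, had 770 CPM in members and 831 in matched cells (log2 ratio -0.11, -0.15 to -0.07). *Cxcl3*, a neutrophil attractant gene, stood at -0.31 (-0.50 to -0.13).

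The other genes of the Dusp family, which holds MAPK phosphatases and atypical members such as *Dusp11* and *Dusp19*, showed no common direction. Of 12 compared, 6 were above 0 and the median log2 ratio was -0.02. *Dusp1*, the nuclear phosphatase induced by stress and growth signals, was the highest, with 753 CPM in members and 653 in matched cells (0.21, 0.16 to 0.25), and after thinning was found in 66.4% and 58.0% of cells. *Dusp5*, a nuclear phosphatase for ERK, was at 781 and 779 (0.00, -0.04 to 0.04).

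*Dusp4*, another nuclear phosphatase of the family, had 25.8 and 24.1 CPM (log2 ratio 0.10, -0.13 to 0.32). *Dusp6*, a cytoplasmic ERK phosphatase, was at -0.09 (-0.22 to 0.05) and *Dusp10*, which acts on p38 and JNK, at 0.03 (-0.09 to 0.15). *Dusp19* was lowest, with 5.98 and 8.89 CPM (-0.57, -1.03 to -0.13). *Dusp1* thus stood out by its counting interval above 0 and *Dusp19* by its interval below 0.

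Kinase genes of the cascade did not stand apart as a group. *Mapk3*, which encodes ERK1, had a log2 ratio of 0.11 (-0.11 to 0.33) and *Mapk14*, which encodes p38α, one of 0.01 (-0.17 to 0.18), neither beyond counting error. *Stat3*, another reported PAC1 substrate, was at -0.09 (-0.19 to 0.01). Of 34 MAPK cascade genes compared, 13 were above 0 and the median was -0.02.

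At the ends of that list stood *Srf*, the serum response factor that drives many immediate-early genes, with 11.6 CPM in members and 9.02 in matched cells (log2 ratio 0.37, 0.01 to 0.71), and *Map2k1*, which encodes MEK1, at -0.21 (-0.45 to 0.02), level with *Elk1*. The kinase gene *Map3k8* was also above 0 beyond counting error, with 233.9 CPM in members and 204.5 in matched cells (0.19, 0.12 to 0.27). Of the 4 Sprouty and Spred inhibitors of ERK signalling compared, *Spry2* had 204 CPM in members and 183 in matched cells (0.16, 0.08 to 0.24), *Spred1* was at 0.31 (-0.01 to 0.62), and *Spry1* and *Spred2* were at -0.05 each. In members below the median depth all 4 were above 0. RNA levels say nothing of the phosphorylation on which PAC1 acts.

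**Figure D3:**
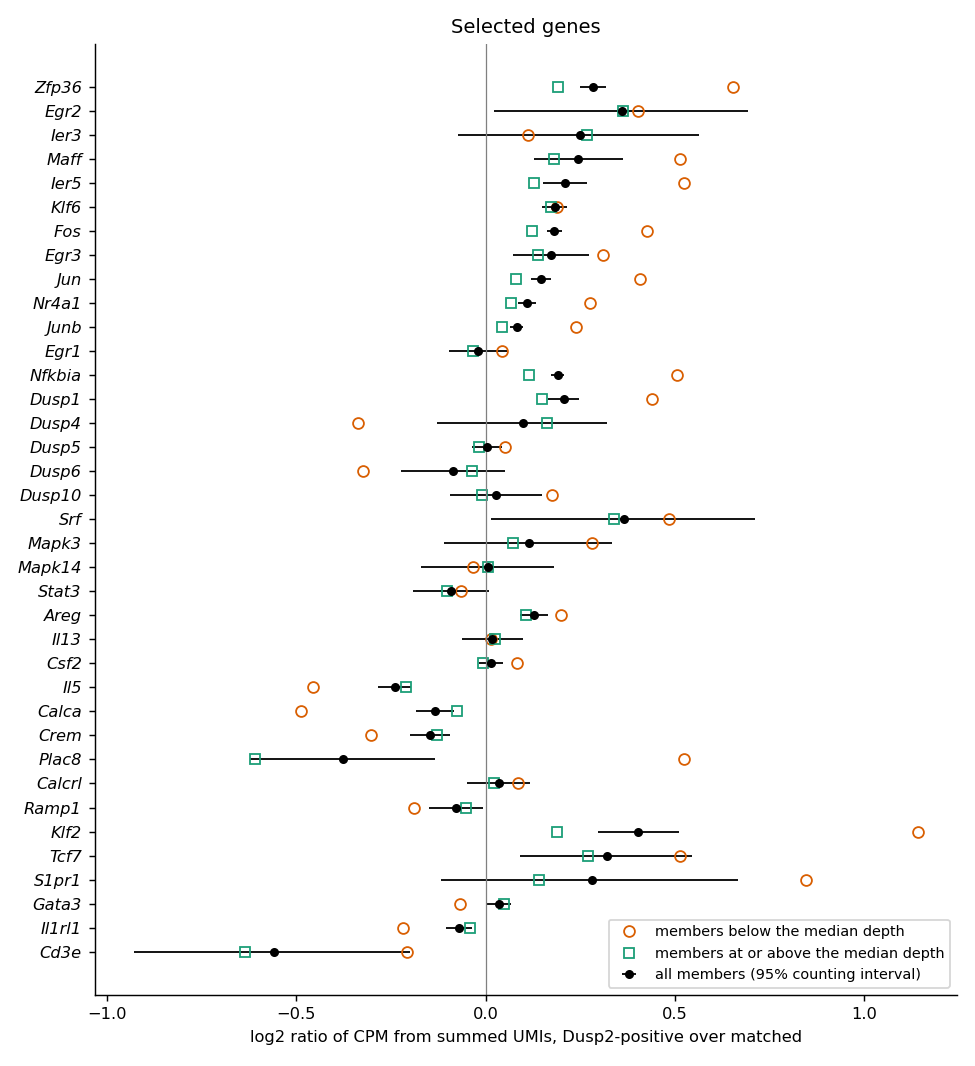
Log2 ratio of CPM from summed UMIs for selected genes in all *Dusp2*-positive cells (black, with 95% counting intervals), in members below the median member depth (orange circles) and at or above it (green squares), each against matched cells. *Zfp36*, *Nfkbia* and *Klf2* lie above 0 in all of these, and *Il5*, *Calca* and *Crem* below.

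Of 9 genes named as CGRP responses, 0 had a ratio above 0 (median log2 ratio -0.08). Those of *Icos*, *Tnfrsf9*, *Perp* and *Pde4d* did not differ from 0 beyond counting error, and *Plac8*, *Tnfrsf9* and *Pde4d* took positive values under some alternatives. Several of these genes were named by the study from its own ILC2 cultures. *Calca*, which encodes CGRP itself, had 475 CPM in members and 521 in matched cells (-0.13, -0.18 to -0.08), *Crem*, a cAMP-induced repressor gene, had 429 and 474 (-0.15, -0.20 to -0.09), and *Plac8* had 19.9 and 25.9 (-0.38, -0.62 to -0.13). The *Calca* ratio did not differ from 0 beyond counting error in members with 1 or 2 *Dusp2* UMIs. *Plac8* was not uniform, since in members below the median depth it was at 0.52 (-0.01 to 1.04). With every cell given equal weight it was at 0.00. Members with 1, 2, 3 and at least 4 *Dusp2* UMIs, each against their own matched cells, had CGRP response medians of -0.07, 0.13, -0.43 and -0.295.

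Of the CGRP receptor subunit genes, *Ramp1* was slightly lower in members, at -0.08 (-0.15 to -0.01), and *Calcrl* was at 0.03 (-0.05 to 0.12). The 12 cAMP target genes, 2 of which are also on the CGRP list, had 7 above 0 and a median of 0.02.

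Genes of unstimulated lymphocytes were not lower along with the higher immediate-early genes. Of 12 compared, 10 were above 0 (median 0.08), against 48.1% of all genes. With every cell given equal weight 7 were above 0 (median 0.05), and in members below the median depth 8 were (median 0.07). *Klf2*, a quiescence factor that also maintains *S1pr1*, had 121 CPM in members and 91.2 in matched cells (log2 ratio 0.40, 0.30 to 0.51), the highest of the list, followed by *Tcf7*, which encodes TCF-1, at 0.32 (0.09 to 0.55). *S1pr1*, the receptor for exit from tissue, was at 0.28 (-0.12 to 0.67). Summed over members, *Klf2*, *Fos* and *Zfp36* were thus all higher. Whether the same single cells held more of all of them was not tested.

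Of the 14 ILC2 identity genes, 6 were above 0, against 48.1% of all genes, and their median was -0.01. With every cell given equal weight 3 were above 0 (median -0.05), and in members below the median depth 4 were (median -0.09). The 8 p53 target genes had 5 above 0 and a median of 0.02.

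**Figure D4:**
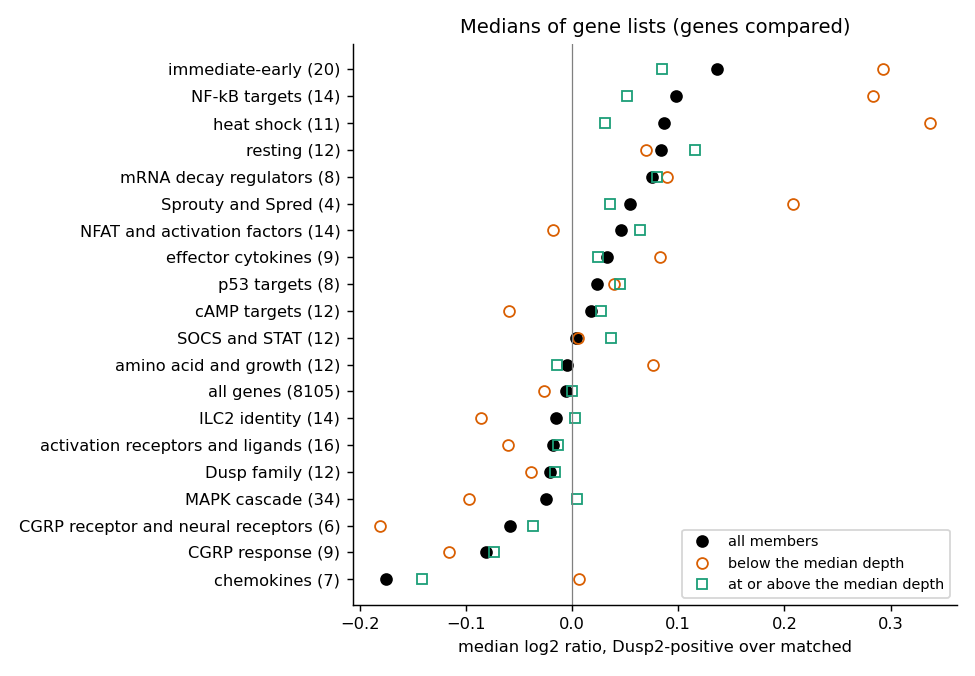
Median log2 ratio of gene lists with at least 4 genes compared, cell type markers left out, in *Dusp2*-positive over matched cells, with the number of genes compared in brackets, for all members (black), members below (orange circles) and at or above (green squares) the median member depth. Over all members, immediate-early genes have the highest median of the lists plotted, 0.14, and the CGRP response and chemokine lists the lowest; below the median depth the heat shock list is highest, at 0.34.

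Shallow and deep members differed in the size of these ratios. Matching was close for shallow members (median 4117.5 UMIs against 4116.5) but not for deep ones (16581 against 14210), so the 2 sets of ratios are not equally matched. Summed UMIs are mostly those of deep cells, and the 374 members below the median depth held 18.3% of the members' UMIs. In these shallow members 44.6% of all genes were above 0, all 20 immediate-early genes were, and the immediate-early median was 0.29, against 0.08 in the deep members, where 49.8% of all genes were above 0. *Klf2* had 186 CPM in shallow members and 84.3 in their matched cells (log2 ratio 1.14, 0.93 to 1.36), but 0.19 (0.06 to 0.31) in deep members.

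*Zfp36* was at 0.65 in shallow and 0.19 in deep members, and *Dusp1* at 0.44 and 0.15. The heat shock list had medians of 0.34 and 0.03. *Il5* was at -0.46 (-0.57 to -0.34) and -0.21 (-0.26 to -0.17), and *Calca* at -0.49 and -0.08. The directions of these genes were the same at both depths. Predicted doublets made up 20.5% of members and 7.74% of all *Dusp2*-zero barcodes, with a median of 21829 UMIs among the members predicted to be doublets. These 2 shares were not matched for depth, and the share in the matched cells was not counted. Over 2 times the median depth of kept barcodes lay 47.6% of members, 47.5% of matched cells and 18.9% of all *Dusp2*-zero barcodes. With predicted doublets removed, which left 596 members, the immediate-early median was 0.14, *Zfp36* was at 0.32, *Klf2* at 0.59 and *Il5* at -0.19.

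More *Dusp2* per cell did not go with steadily larger ratios for *Zfp36*, *Klf2*, *Il5* or *Il13*, but did for *Hspa1a* and *Jun*. Against their own matched cells, members with 1, 2, 3 and at least 4 *Dusp2* UMIs had *Zfp36* at 0.24, 0.38, 0.35 and 0.29, and *Klf2* at 0.26, 0.56, 0.65 and 0.48. For *Il5* the 4 values were -0.22, 0.07, -0.63 and -0.52, and for *Il13* 0.12, 0.22, -0.60 and -0.37. *Il5* and *Il13* were thus lower in members with at least 3 UMIs and not in those with 2. *Calca* was at -0.01 (-0.08 to 0.05), -0.08 (-0.20 to 0.03), -0.73 (-0.91 to -0.55) and -0.295 (-0.43 to -0.16) in the same 4 classes. *Areg* was at 0.20 and 0.23 in members with 1 and 2 UMIs, and at -0.10 and -0.11 in those with 3 and at least 4. For *Csf2* the 4 values were 0.07, -0.03, -0.19 and -0.02. The heat shock median was -0.05 in members with 1 UMI and between 0.23 and 0.34 in the others. *Hspa1a* was at 0.05, 0.36, 0.41 and 0.56 in the 4 classes, and *Jun* at 0.08, 0.176, 0.182 and 0.31. *Jun* did not stand for the immediate-early genes, whose median did not rise over the 4 classes, at 0.15, 0.13, 0.05 and 0.15.

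The comparison can be turned around by asking how often *Dusp2* was found in cells thinned to 2000 UMIs with and without another gene. *Dusp2* was found in 5.34% (4.72% to 6.02%) of cells with *Zfp36* and 2.46% (1.91% to 3.12%) of those without, and in 6.24% (4.73% to 8.04%) with *Klf2* and 4.04% (3.57% to 4.54%) without. For *Fos* the shares were 4.62% and 2.89%. By cytokine, *Dusp2* was found in 5.11% (4.45% to 5.84%) of 4050 cells with neither *Il5* nor *Il13*, in 3.20% (2.49% to 4.04%) of 2096 with *Il5* alone, in 3.78% with *Il13* alone and in 3.30% (2.10% to 4.90%) of 698 with both.

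Without thinning the same 4 classes had shares of 9.31%, 9.92%, 11.3% and 12.9%, in another order, and the cells with both cytokines were also the deepest (median 5788 against 4106.5 UMIs). Not every partner followed its ratio. *Dusp2* was found in 3.87% of cells with *Tcf7* and 4.31% without, in 4.17% with *S1pr1* and 4.30% without, in 4.78% with *Cd3g* and 4.19% without, and in 5.47% with *Plac8* and 4.26% without, each pair with overlapping intervals. The partner genes were chosen after values were seen, and the shares come from the same cells as the ratios.

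Members were found in all 8 clusters of the kept cells, which were made without *Dusp2* and were left unnamed. Cluster 2, led by *Il5*, *Crem* and *Calca*, had the lowest *Dusp2* share after thinning, 2.14% (1.42% to 3.103%), and a *Dusp2* level of 9.61 CPM (7.40 to 12.3). Barcodes under 500 genes had 10.1 CPM (5.63 to 16.6), which rests on 15 UMIs and is not a measure of free transcript alone. The part of free transcript in cluster 2 was not tested. Clusters 5 and 8 had the highest shares, 6.68% (5.14% to 8.52%) and 6.84% (4.93% to 9.20%), with 45.8 and 38.4 CPM. The intervals of clusters 5 and 8 do not overlap that of cluster 2, but neither do those of clusters 4 (3.32% to 5.76%) and 7 (4.18% to 7.70%). Clusters 5 and 8 have intervals that overlap those of clusters 4, 6 and 7.

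Cluster 8 had the most *Fos*, 4787 CPM, and cluster 5 the most *Klf2*, 185 CPM, against 1277 of *Fos* and 76.4 of *Klf2* in cluster 2. Haemoglobin genes led cluster 5, at 297 CPM, although only 5.88% of its cells held any and 1 cell held 680 of 1 haemoglobin gene. Clusters 4 and 7 were deep, with medians of 13341 and 10915 UMIs, held 30.7% and 17.1% of the members, and included 377 and 273 of the predicted doublets.

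**Figure D5:**
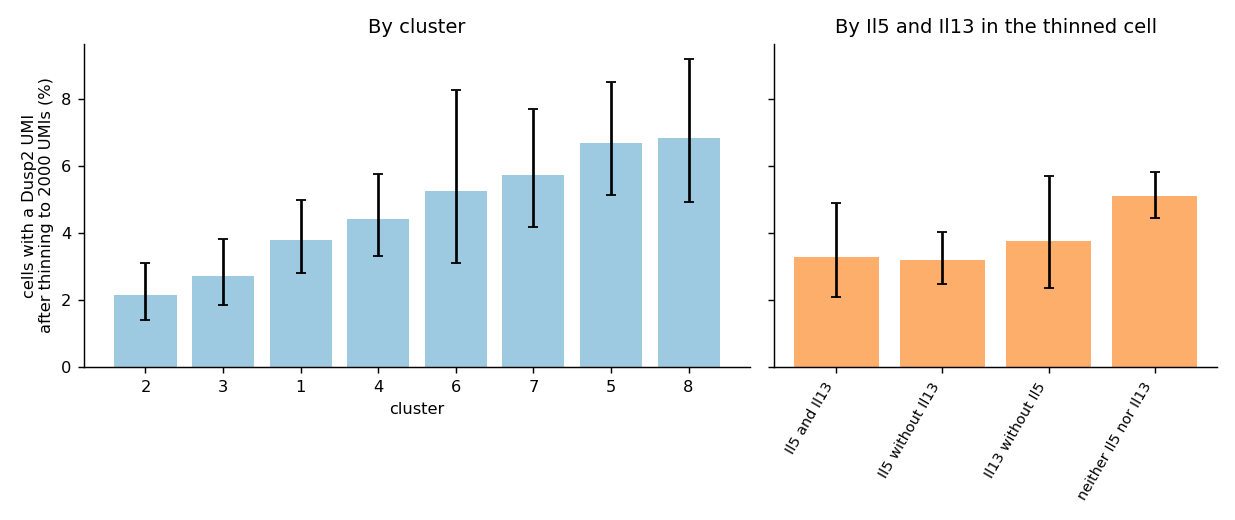
Percentage of cells with a *Dusp2* UMI after thinning to 2000 UMIs, by cluster of the kept WT ILC2s (left) and by *Il5* and *Il13* UMIs in the same thinned cells (right), with 95% exact intervals for counting error. Cluster 2 is lowest at 2.14% and clusters 5 and 8 are above 6%; cells with neither cytokine are highest on the right at 5.11%.

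When members were matched for depth within their own cluster, the ratios of most of these genes were smaller. *Zfp36* went from 0.28 to 0.20, *Nfkbia* from 0.19 to 0.11, *Il5* from -0.24 to -0.11 and *Calca* from -0.13 to -0.06. *Klf2* was at 0.34 and *Egr2* at 0.43, each within counting error of the value across clusters. The immediate-early median was then 0.09, the CGRP response median -0.05 and the effector cytokine median -0.02. Since the clusters were made with these genes, matching within them takes away part of any difference by construction.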

How the data were processed

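Lung ILC2s pooled by genotype were sequenced by the 10x Genomics 3′ droplet method, with 1 WT and 1 Pac1-/- library. The deposited values were raw UMI counts per gene and barcode, which the authors made with Cell Ranger by alignment to mm10, without normalization. The labels give version 6.1.1 and the file header 4.0.0. The annotation release was not given in the sources used here. 3′ counting does not depend on transcript length to a first order.

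The members and gene lists were chosen with earlier results of these data known. Barcodes with at least 500 genes, at most 10% mitochondrial UMIs and *Gata3* or *Il1rl1* were kept (8193 of 8394 passing the first 2 limits). This set was not made with the filter of the study, and doublets were scored (2 simulated per cell; 730 predicted, 8.70%) but not removed. Each member took the 3 nearest unused *Dusp2*-zero barcodes in log10 UMIs. Summed UMIs of genes with at least 200 UMIs were compared by ratio, with exact conditional binomial intervals. Shares have Clopper-Pearson and levels Poisson intervals, all at 95% and for counting error only. PCR copies are removed by the UMIs. The ratio and its interval were tested on simulated data. No test across samples was possible.

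Clusters used 2000 variable genes without *Dusp2*, 30 components, 15 neighbours and Leiden resolution 1. By rule, the 12 genes at each end of the ratios were named, unnamed gene models left out. For lists, names were drawn from the 2 highest and 2 lowest members, of which some are given by the list's counts alone, and from a set of genes named whatever their value. Others are said to be chosen by value. An item that the rule covers is not reported here. Alternatives changed the limits, doublets, matching, weighting, minimum UMIs and thinning. Coordinates are GRCm38 and the promoter is from RefSeq. Intervals were computed with scipy 1.17.1 and numpy 2.4.6 in Python 3.11.15, clusters with igraph 0.11.9, leidenalg 0.10.2 and scikit-learn 1.9.0, tables with pandas 2.3.3, and plots with matplotlib 3.10.9.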

Additional observations from a re-analysis of the deposited data

Results flagged for a closer look

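The Pac1-/- library held 5 *Dusp2* UMIs among its 9495 barcodes, in 5 barcodes of 1 UMI each, although the mice lack PAC1. WT barcodes under 500 genes, which were used in no comparison of genes, held 15 *Dusp2* UMIs, or 10.1 CPM (5.63 to 16.6). The source of these UMIs was not tested.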

How the results depend on the processing

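Under 17 alternatives, 4 of them chosen after seeing the data (members below and at or above their median depth, matching within clusters, and the highest cell of each gene left out), the immediate-early median (0.14) ranged from 0.08 to 0.29, the NF-κB target median from 0.05 to 0.28 and the CGRP response median from -0.18 to -0.05, so none of these changed sign under them. In the split by single *Dusp2* counts, however, the CGRP response median was 0.13 in members with 2 UMIs. The effector cytokine (-0.02 to 0.19), Dusp family (-0.04 to 0.10), cAMP target (-0.06 to 0.09) and MAPK cascade (-0.10 to 0.004) medians took both signs. The immediate-early median was 0.20 with no depth matching, 0.19 with every cell weighted the same, 0.29 below and 0.0844 at or above the median depth, and 0.0889 within clusters. With no depth matching the cAMP and effector cytokine medians were 0.0893 and 0.19. The cAMP median was -0.0592 below the median depth, and the Dusp family median 0.10 for members with at least 2 *Dusp2* UMIs.

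Counts of genes past 1.5-fold moved most, and no list result rests on them. Higher and lower genes numbered 3 and 1 with all *Dusp2*-zero cells weighted over 20 depth bins, 16 and 40 with no matching, 34 and 81 with equal weights, 103 and 147 at a minimum of 50 UMIs, 0 and 0 at 1000, 200 and 459 below the median depth, and 5 and 16 without the highest cell. Lower genes alone moved to 15 without predicted doublets, 3 with 1 matched cell, 16 when matched on detected genes and 31 at or above the median depth. Fewer UMIs per gene or fewer cells widen the ratios by construction, and for the others the cause was not tested.

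*Hba-a1* reversed to -0.18 without cells holding markers of other types, -0.26 for members with at least 2 *Dusp2* UMIs, -0.62 below the median depth and -0.24 without the highest cell. Below the median depth *Ccl4* was at 0.58 (-5.30 to 4.85), from 1 member UMI and 2 matched UMIs. There *Kcnmb4*, a potassium channel subunit gene, was at -0.78 (-2.19 to 0.41), from 7 and 36 UMIs. Neither differed from 0 beyond counting error. The share with *Dusp2*, 4.30% at 2000 UMIs, was 1.97% at 1000, 5.41% at 3000 and 9.15% unthinned. No paired analysis was possible because there was 1 library per genotype. Depth limits the report to genes with at least 200 UMIs, and a *Dusp2*-zero cell may hold transcript that was not captured.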
